A study of Mus musculus with 2 samples.

Results

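The 10 genes described here belong to the NF-kB pathway and were followed through the cells of a mouse glioblastoma model. They are Map3k14, Traf2 and Traf3, which control the entry to the noncanonical arm, Nfkb1, Nfkb2, Rela and Relb, which encode NF-kB subunits, and Nfkbia, Nfkbie and Tnfaip3, which restrain the pathway. These 10 genes were chosen by symbol out of 19059 measured genes, and each symbol matched 1 gene in the files. The tumors grew orthotopically in C57BL/6J mice from Trp53+/- and Nf1+/- mouse glioblastoma stem cells (mGSC), and every tumor of both groups carried this genotype. One group of mice received vehicle and the other received Xevinapant, a SMAC mimetic that antagonizes inhibitor of apoptosis proteins, once a day, and 4 tumors per group were dissociated directly after treatment. Transcripts were counted in single fixed cells as unique molecular identifiers (UMIs), with 4 count matrices per group. The tissue label names a GBM stem cell line, but the sample is the whole tumor, so the cells of the host are in the same matrices. Each group was deposited as 1 pooled sample, and mGSC is a single line, so the tumors share its genetic background. The methods describe purchased mice as young females and give no age per tumor.

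In the noncanonical NF-kB pathway, NIK, the kinase encoded by Map3k14, is made continuously and destroyed continuously by a complex of TRAF2, TRAF3 and the cellular inhibitors of apoptosis cIAP1 and cIAP2. When a receptor such as CD40 disrupts this complex, or a SMAC mimetic removes the cIAPs, NIK protein accumulates. The Nfkb2 product p100 is then cut to p52, and p52 enters the nucleus with RELB. In the canonical pathway, p50 from Nfkb1 and RELA are held in the cytoplasm by IkB proteins such as the products of Nfkbia and Nfkbie, and A20, the product of Tnfaip3, edits ubiquitin chains and switches the signal off. Nfkbia, Nfkbie, Tnfaip3, Nfkb2 and Relb are themselves targets of NF-kB, whereas NIK is controlled mainly as a protein, which transcript counts do not show.

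The matrices held 56943 barcodes and 1163463035 UMIs, between 71835789 and 300206053 UMIs per matrix, and 50962 cells remained after filters and removal of likely doublets. Cells were assigned to a class by a gate on marker UMIs that used none of the 10 genes, and each class is named for the gate its cells passed. This gave 38712 malignant cells, 858 microglia, 693 macrophages or monocytes, 290 neutrophils, 122 dendritic cells, 157 T or NK cells, 223 endothelial cells, 457 fibroblasts, 45 mural cells and 40 B cells. The remaining cells were not used: 7096 passed no gate, 905 passed several and 150 were erythrocytes. Another 1214 phagocytes met neither the microglia nor the macrophage or monocyte gate, so these classes do not hold all phagocytes of the tumors. In all, 3 pairs of matrices of the same group were nearly alike in malignant cells and were joined, which left 5 samples: vehicle 1+3, vehicle 2 and vehicle 4, and Xevinapant 1+2 and Xevinapant 3+4. Nothing in the labels ties a matrix to a mouse, so p-values measure the spread between these samples, part of which may be technical. Library pool and batch date coincided with the treatment, and one group is labeled total RNA and the other polyA RNA, so treatment, pool and batch cannot be told apart. A set of 466 barcodes was kept in both a vehicle and a Xevinapant matrix, in each case in matrices of the same number. Leaving out all 1660 kept cells whose barcode occurred in matrices of both groups, before filters, changed no count of the 10 genes called in any class. The tumor marker genes stood in the other classes with samples of both groups at 4.11% to 10.9% of their level in malignant cells, higher after vehicle than after Xevinapant in each of them. The part of free RNA and mixed droplets in the values given here was not tested except where cells of a lower tumor gene share are named.

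The 10 genes lie on chromosomes 2, 3, 7, 10, 11, 12, 17 and 19. The RefSeq table of mouse promoters (GRCm38.p6, 250 bases before to 50 bases after each start site) held 8 of the 10 genes, all but Relb and Nfkb1. The NF-kB consensus motif of 10 letters, searched on both strands with overlapping matches counted once, was present in at least 1 promoter of 5 of these 8 genes: Nfkb2, Traf3, Nfkbia, Tnfaip3 and Nfkbie. It was present in 8.46% of the 32851 promoters in the table and for 9.55% of 27025 genes. No match was found in the windows of Map3k14, Traf2 and Rela. One match is printed for each of the 5 genes, on the strand of the gene with the 10 matching letters in capitals, because the subunit and inhibitor genes among them are known targets of the factors encoded by the others.
Nfkb2, chr19:46304688-46304717, plus strand: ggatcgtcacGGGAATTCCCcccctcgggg
Traf3, chr12:111166350-111166379, plus strand: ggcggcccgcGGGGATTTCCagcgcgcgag
Nfkbia, chr12:55492657-55492686, minus strand: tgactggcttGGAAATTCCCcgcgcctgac
Tnfaip3, chr10:19015403-19015432, minus strand: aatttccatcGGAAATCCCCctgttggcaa
Nfkbie, chr17:45555584-45555613, plus strand: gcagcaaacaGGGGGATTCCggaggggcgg
Nfkb2 had matches in all 3 of its listed promoters. The window at chr19:46305680-46305979 overlaps that at chr19:46305445-46305744, and its only match, chr19:46305695-46305724, lies in both. A match is a run of letters in this window and was not tested as a binding site.

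Levels are given in CPM, the UMIs of a gene per 1000000 UMIs of the class and sample. They are compared between classes for the same gene but not between genes, because the number of probes per gene was not known. Map3k14 (ENSMUSG00000020941, chr11:103219762-103267472, minus strand) was highest in dendritic cells, with 254 in vehicle 1+3, 93.8 in vehicle 4, 232 in Xevinapant 1+2 and 272 in Xevinapant 3+4. Neutrophils followed, with values from 0 to 165, and then T or NK cells, with values from 56.4 to 105. The 0 was vehicle 4, whose 10 neutrophils held 10971 UMIs, and this depth allows a level of up to 273. In this sample 1 UMI was worth 91.1 CPM. The dendritic value of vehicle 4 rests on 5 UMIs, and with 1 more marker in the gate no vehicle sample kept 10 dendritic cells, so dendritic levels after vehicle depend on the gate. Microglia (39.5 ± 10.9, SD, 5 samples), macrophages or monocytes (37.1 ± 18.3) and fibroblasts (29.5 ± 8.71) overlapped one another. Every sample of these 3 classes except vehicle 2 macrophages, at 14.4, stood above all malignant samples, which ranged from 12.5 to 18.4. Endothelial cells ranged from 5.66 to 23.2 and overlapped the malignant cells.

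Traf2 (ENSMUSG00000026942, chr2:25517982-25546940, minus strand), an adaptor that brings cIAP1 and cIAP2 to its partners, showed another order. T or NK cells had 185, 182, 173 and 165, which overlapped none of the other 7 classes with samples of both groups, although the 2 samples of B cells, at 0 and 397, spanned this range. The 185 of vehicle 1+3 and the 182 of vehicle 4 rest on 7 and 8 UMIs, so this separation is not secured by the counts of the vehicle samples. Malignant cells came next with 92.3, 97.8, 108, 116 and 108. Microglia averaged 48.2 ± 14.5, macrophages or monocytes 49.4 ± 10.6 and fibroblasts 45.6 ± 6.24, and all samples of these classes lay below the malignant range. Traf3 (ENSMUSG00000021277, chr12:111166370-111267153, plus strand), the adaptor that binds NIK, was 62.7 ± 4.36 in malignant cells against 36.3 ± 5.13 in microglia and 28.7 ± 8.73 in endothelial cells. Dendritic cells had 78.1 ± 27.4 for Traf2 and 58.0 ± 22.2 for Traf3 (4 samples). The highest Traf3 mean was that of T or NK cells, 78.7 ± 31.1 over 4 samples, with a range that overlapped the malignant cells.

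Among the subunits, Nfkb1 (ENSMUSG00000028163, chr3:135584655-135691547, minus strand), the source of p105 and p50, had its highest levels in T or NK cells and dendritic cells among the 8 classes that had samples of both groups. T or NK cells had 343 in vehicle 1+3, 432 in vehicle 4, 270 in Xevinapant 1+2 and 264 in Xevinapant 3+4, and dendritic cells had 327, 338, 295 and 323. No sample of the other 6 of these classes went above 182, and the 2 samples with enough B cells had 173 and 331. Malignant cells (62.3 ± 6.65) and fibroblasts (54.4 ± 19.9) were lowest and overlapped. Nfkb2 (ENSMUSG00000025225, chr19:46304320-46312385, plus strand), the source of p100 and p52, had the same leading classes, with 283 ± 26.4 in dendritic cells and 301 ± 100 in T or NK cells. Neutrophils averaged 157 ± 45.9, and the 5 remaining classes had means between 58.1 and 80.4, each overlapping the next.

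Rela (ENSMUSG00000024927, chr19:5637483-5648130, plus strand), the main transactivating subunit of the canonical dimer, was highest in neutrophils, with 264, 182, 271 and 238, of which the 182 of vehicle 4 rests on 2 UMIs. Dendritic cells had 162 ± 61.2. Microglia stood at 90.4 to 106 and malignant cells at 62.9 to 89.4, so the ranges of these neighbors in the order did not overlap. Relb (ENSMUSG00000002983, chr7:19606217-19629438, minus strand), the partner of p52, had its highest mean in dendritic cells, 120 ± 85.6, but all neighboring classes overlapped. Relb in malignant cells, 63.1 ± 12.1, lay above all samples of microglia (24.7 to 42.6) and of fibroblasts (12.7 to 34.6).

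Of the inhibitors, Nfkbia (ENSMUSG00000021025, chr12:55489410-55492647, minus strand) encodes IkB alpha, the inhibitor that is resynthesized within each round of NF-kB activity. Neutrophils had 1086 in vehicle 1+3, 1550 in vehicle 4, 891 in Xevinapant 1+2 and 927 in Xevinapant 3+4, above every sample of the other classes, B cells included. T or NK cells, endothelial cells and dendritic cells followed with means of 476, 407 and 347 and overlapping ranges, malignant cells had 235 ± 22.1, and fibroblasts (116 ± 15.9) and microglia (113 ± 20.2) were lowest. Tnfaip3 (ENSMUSG00000019850, chr10:19000910-19015657, minus strand) was 188 ± 103 in T or NK cells and 156 ± 21.3 in neutrophils, and the neutrophil samples, 132 to 182, lay above all samples of the classes ranked after them. The 182 of vehicle 4 rests on 2 UMIs (exact 95% Poisson interval 22.1 to 659, counting error only) and the 147 of vehicle 1+3 on 5 (47.7 to 343), so this separation is not secured by the counts of the vehicle samples. Tnfaip3 was 55.0 ± 21.8 in dendritic cells. Nfkbie (ENSMUSG00000023947, chr17:45555703-45563169, plus strand), which encodes IkB epsilon, was highest in dendritic cells, 75.0 to 128, where the 75.0 of vehicle 4 rests on 4 UMIs, and lowest in fibroblasts, 7.61 to 20.4.

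B and mural cells were too few to be ordered. In the 40 B cells together, Nfkb2 gave 31 UMIs (436 CPM), Nfkbia 33 (464 CPM) and Map3k14 11 (155 CPM). In the 45 mural cells, Nfkbia gave 68 UMIs (225 CPM) and Rela 58 (192 CPM), and Map3k14 gave 7.

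**Figure D1:**
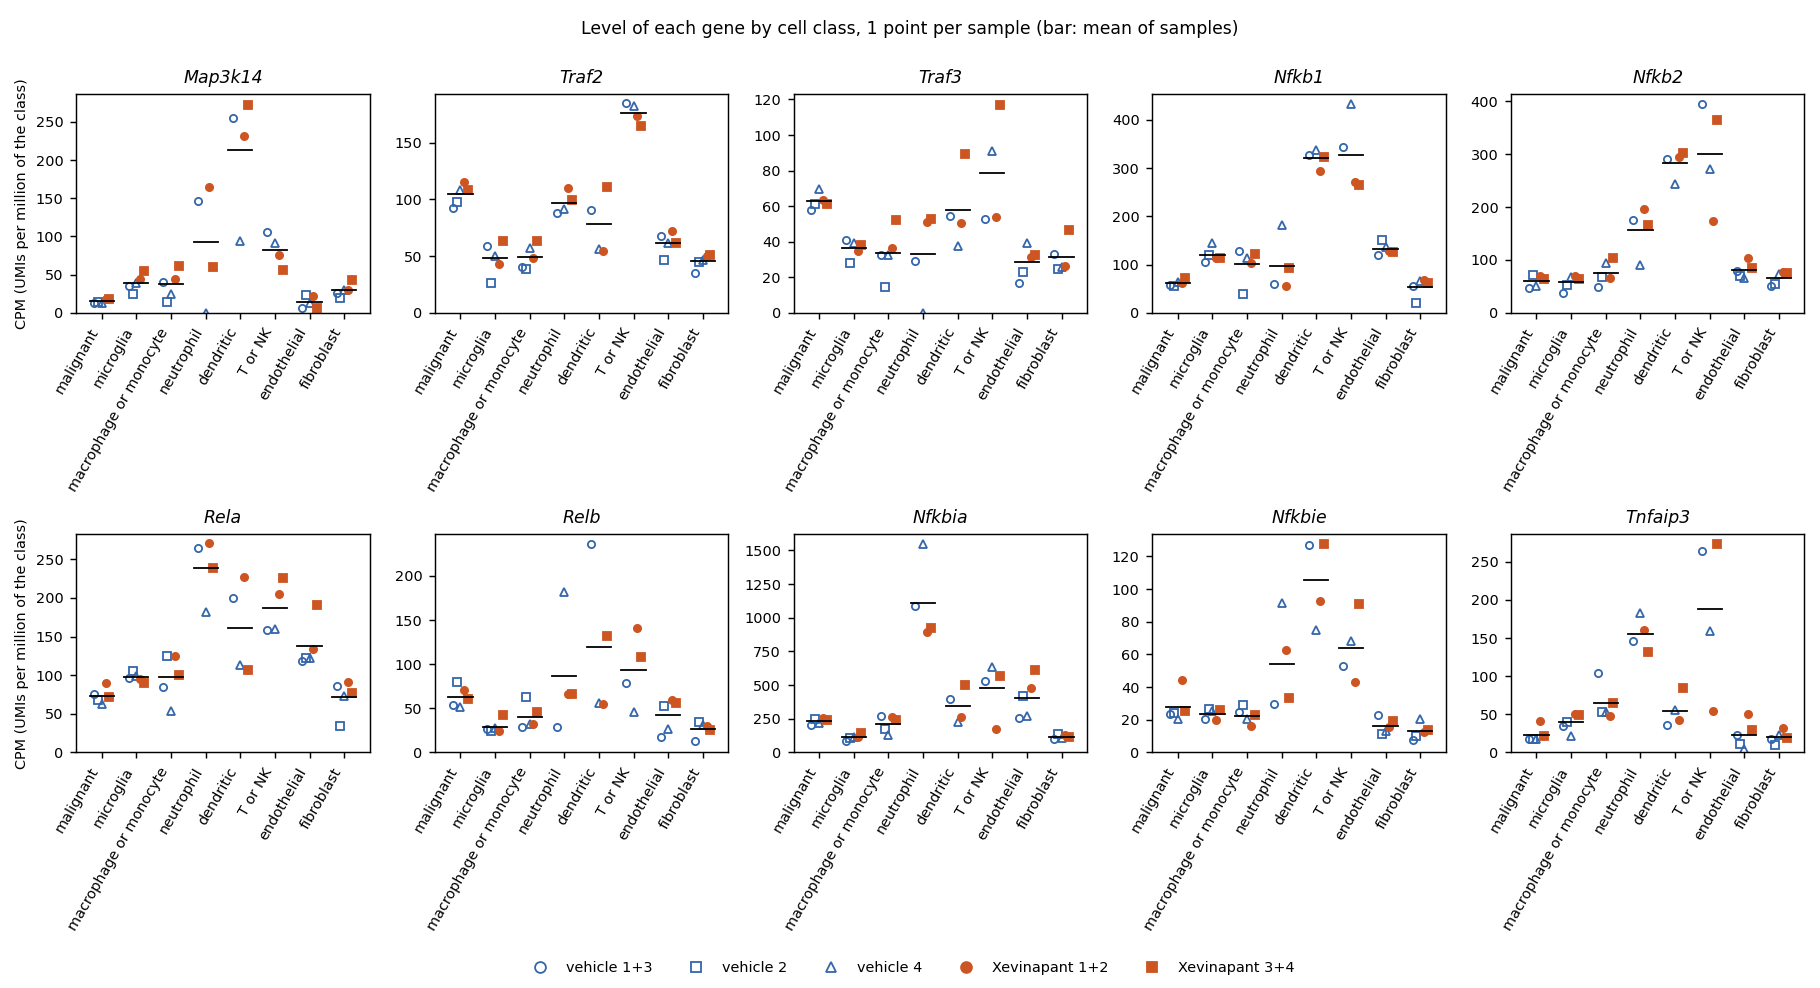
Each panel plots 1 gene, with cell classes on the x axis and CPM of the class on the y axis from 0, open blue symbols for vehicle samples, filled orange symbols for Xevinapant samples and a bar at their mean. Nfkbia in neutrophils (891 to 1550) and Traf2 in T or NK cells (165 to 185) do not overlap any other class plotted, and Nfkb1 and Nfkb2 are highest in dendritic and T or NK cells. The Traf2 values of the vehicle samples in T or NK cells rest on 7 and 8 UMIs.

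The contrast of a class with the malignant cells of the same samples was tested with edgeR's quasi-likelihood test with the sample as a block and Benjamini-Hochberg adjustment over all genes. Fold changes from this test are scaled by TMM, a trimmed mean that centers most genes. Without TMM the median log2 fold change of all genes was -0.69 in microglia, -0.71 in macrophages or monocytes, -1.33 in neutrophils, -0.51 in endothelial cells and -0.72 in fibroblasts. With TMM these medians were -0.20, -0.24, -1.11, -0.25 and -0.12. A gene with equal CPM in both classes therefore has a fold change above 1 in this test, and the changes given here are relative to this centering.

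In microglia 5 of the 10 genes were higher than in malignant cells and 4 were lower, where 31.4% and 39.7% of all tested genes were higher and lower. In macrophages or monocytes 5 were higher and 1 was lower (28.7% and 36.2% of all genes). In neutrophils, tested over 4 samples, 5 were higher and 0 lower (15.1% and 30.1%), with 5 of 10 at an unadjusted p under 0.05, as were 51.7% of all genes. In endothelial cells 4 were higher and 2 lower (22.1% and 26.1%), and in fibroblasts 4 were higher and 3 lower (27.3% and 29.2%). Without TMM the higher calls were fewer in 4 of the 5 classes and the lower calls more in 2, with 4 higher and 4 lower in microglia (21.9% and 57.6% of all genes), 4 and 3 in macrophages or monocytes (21.7% and 52.2%), 5 and 0 in neutrophils (15.9% and 40.1%), 3 and 2 in endothelial cells (18.7% and 36.6%) and 1 and 5 in fibroblasts (18.6% and 52.5%). The gene still called higher in fibroblasts was Map3k14, and Traf3 and Nfkbie joined Traf2, Relb and Nfkbia among the lower ones. With TMM, the median log2 fold change of the 10 genes was 0.38, 0.55, 1.21, 0.13 and 0.03 in these 5 classes in turn.

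Map3k14 was higher in 4 of the 5 classes. Its log2 fold change was 1.87 (SE 0.15) in microglia, 1.80 (SE 0.24) in macrophages or monocytes, 2.85 (SE 0.46) in neutrophils and 1.56 (SE 0.21) in fibroblasts, with adjusted p from 1.3e-08 to 4.6e-05. In endothelial cells it was -0.04, with a 95% interval from -0.93 to 0.86. All 4 calls of Map3k14 remained under every alternative. Of the 2 adaptors, Traf2 was lower in microglia (-0.60), macrophages or monocytes (-0.61), endothelial cells (-0.50) and fibroblasts (-0.59), and Traf3 was lower in microglia (-0.29) and endothelial cells (-0.82). Between 26.1% and 39.7% of all tested genes were lower in these classes. In neutrophils neither Traf2 (0.06) nor Traf3 (-0.20) was called, and Traf3 was not called in macrophages or monocytes (-0.28) or fibroblasts (-0.37). The Traf2 call in endothelial cells was lost without either Xevinapant sample or without vehicle 2 (adjusted p = 0.0569 without Xevinapant 1+2, 0.0683 without Xevinapant 3+4 and 0.0631 without vehicle 2). The Traf3 call in microglia was lost without Xevinapant 1+2, vehicle 2 or vehicle 4 (adjusted p = 0.0977, 0.0786 and 0.097). The Traf3 call in endothelial cells was lost in the cells of lower tumor gene share, those at or under the median of their class, where it was -0.64 (adjusted p = 0.15) and vehicle 4 also fell out for too few cells.

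Of the subunits, Rela was higher in all 5 classes, from 0.62 in fibroblasts to 1.77 in neutrophils on the log2 scale, and Nfkb1 in 4, with 1.42 (SE 0.09) in microglia and 1.32 (SE 0.16) in endothelial cells. Nfkb2 was higher in all 5 classes, between 0.46 in microglia and 1.63 in neutrophils. Several of these directions depended on the scaling: without TMM, Nfkb2 in microglia was -0.02 and Nfkb1 in fibroblasts was -0.13, and Rela in fibroblasts was 0.01. Without TMM, Nfkb2 also missed the threshold in macrophages or monocytes, endothelial cells and fibroblasts, with log2 fold changes of 0.30, 0.42 and 0.17. In cells of lower tumor gene share, also without vehicle 4, it missed the threshold in macrophages or monocytes (0.33) and endothelial cells (0.32). In neutrophils, the calls of Nfkb2 and Rela were lost without either Xevinapant sample (Nfkb2 adjusted p = 0.0991 without Xevinapant 1+2 and 0.112 without Xevinapant 3+4, Rela 0.0575 and 0.0748). The Nfkb1 call in fibroblasts was lost when any sample but vehicle 2 was left out, with an adjusted p of 0.0361 over all samples and 0.105 without Xevinapant 3+4, 0.118 without Xevinapant 1+2, 0.0775 without vehicle 1+3 and 0.121 without vehicle 4. Relb was lower in microglia (-0.54, SE 0.15) and fibroblasts (-0.62, SE 0.17), and both calls remained under every alternative.

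Of the inhibitors, Tnfaip3 was higher in microglia (1.24, SE 0.17), macrophages or monocytes (1.89, SE 0.29) and neutrophils (2.66, SE 0.44). Nfkbia was higher in neutrophils (2.14, SE 0.43) and endothelial cells (1.01, SE 0.17), and lower in microglia (-0.56, SE 0.10) and fibroblasts (-0.42, SE 0.13). The Nfkbia call in fibroblasts was lost without Xevinapant 3+4 (adjusted p = 0.061) and in cells of lower tumor gene share, where vehicle 2 also fell out (adjusted p = 0.111). Nfkbie passed the threshold in no class, with 95% intervals from -0.10 to 0.72 in microglia and from -1.18 to 0.24 in endothelial cells.

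**Figure D2:**
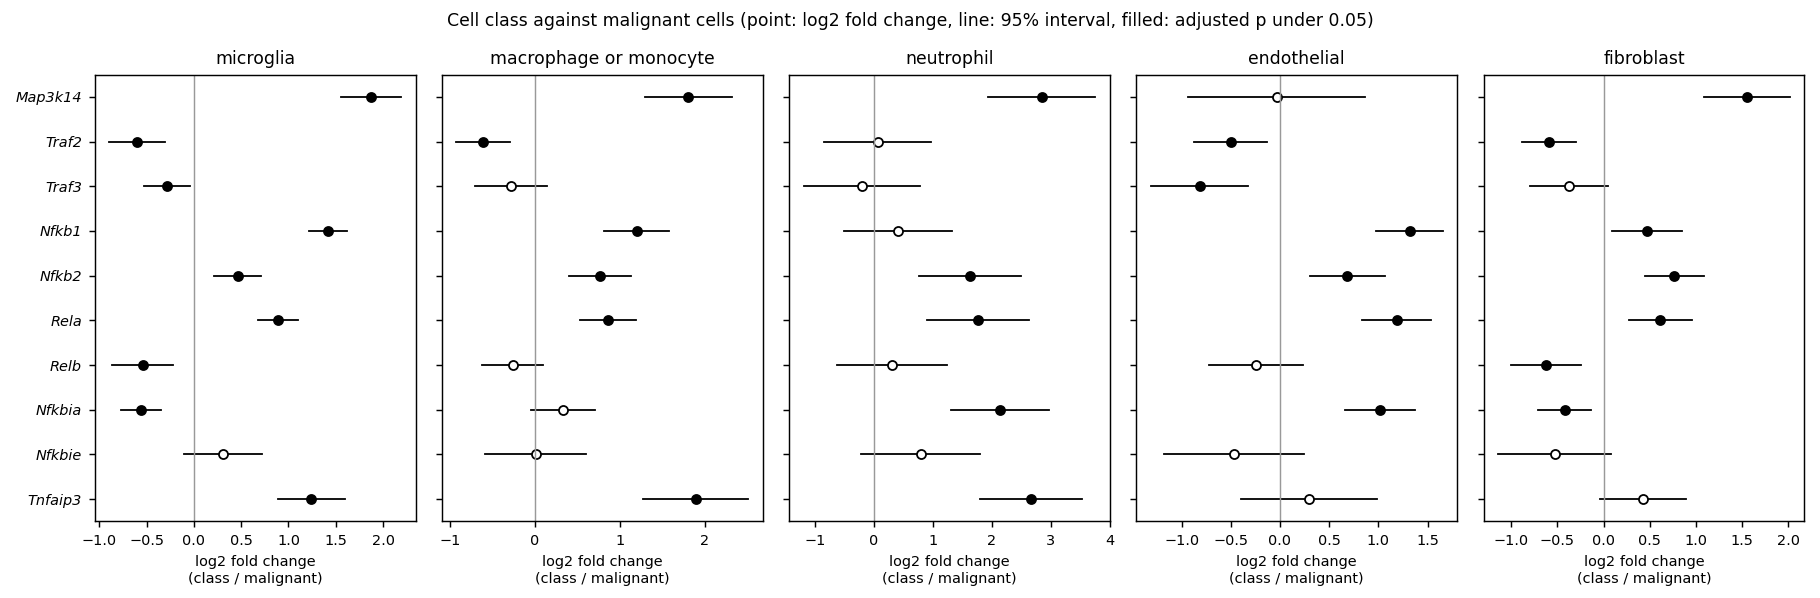
Each panel plots, for 1 cell class against the malignant cells of the same samples, the log2 fold change of the 10 genes after TMM scaling on the x axis (point) with its 95% interval (line), filled where the adjusted p was under 0.05. Map3k14 is filled on the right in every panel but that of endothelial cells, where its interval runs from -0.93 to 0.86, and Rela and Nfkb2 are filled on the right in all 5.

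The share of cells with at least 1 UMI followed depth more than level, so it was read after thinning each cell to 5000 UMIs. Median UMIs per cell were 13694 and 15498 in vehicle and Xevinapant malignant cells, 6392 and 7442 in microglia and 1115 and 1557 in neutrophils. Map3k14 was detected in 21.2% of malignant cells and 26.6% of microglia before thinning, and in 7.69% of 31310 and 20.2% of 568 cells after it. By sample, the thinned shares ran from 6.52% to 9.34% in malignant cells and from 15.8% to 23.8% in microglia, without overlap. Nfkb1 went from 53.7% and 54.9% to 26.1% and 49.3%, and Rela from 56.3% and 48.6% to 28.5% and 40.1%. Nfkbia was detected in 58.1% of thinned malignant cells against 38.0% of thinned microglia, in the same direction as its level. After thinning, 5 genes had a larger share in microglia than in malignant cells, 6 in macrophages or monocytes, 4 in endothelial cells and 5 in fibroblasts, against 2, 2, 0 and 1 before it, where 16.2%, 16.2%, 12.8% and 20.4% of all tested genes had a larger share. Nfkb2 in microglia was counted at 22.5% against 22.4%, with overlapping ranges of the samples. On the shares expected from thinning rather than those of a single draw, the counts were 6, 6, 5 and 5 of 10, where 28.9%, 30.3%, 31.6% and 30.2% of all tested genes had a larger share than in malignant cells. Only 2 neutrophils reached 5000 UMIs, so neutrophil shares were not compared. No cell class was known to lack these genes, so no background share could be set beside these values.

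The effect of treatment was tested within each class on the same sums, without a block. In malignant cells, Map3k14 stood at 13.4, 14.7 and 12.5 in vehicle 1+3, 2 and 4 and at 18.3 and 18.4 in Xevinapant 1+2 and 3+4. All Xevinapant values lay above all vehicle values, as they did for 19.1% of all genes, and the same held for each of the 8 matrices taken alone, 12.5 to 14.7 against 17.7 to 19.3. Because these matrices include the pairs joined to 1 sample, their separation repeats that of the samples and is no further support. The log2 fold change was 0.40 (SE 0.17), with an unadjusted p of 0.0512 and an adjusted p of 0.436 in edgeR. Counting each matrix as 1 mouse gave an adjusted p of 0.0427, the only call of any of the 10 genes under any alternative, where 2.05% of 14029 genes were called higher and 3.14% lower. Over all alternatives the adjusted p ranged from 0.0427 to 0.9997.

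Traf2 in malignant cells was 92.3, 97.8 and 108 after vehicle and 116 and 108 after Xevinapant, and Traf3 was 58.1, 61.2 and 69.8 against 63.4 and 61.1. The Traf2 groups were separated by a narrow gap and the Traf3 groups overlapped. The log2 fold changes were 0.13 (SE 0.12) and -0.06 (SE 0.13).

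The subunits Nfkb2, Relb, Nfkb1 and Rela had log2 fold changes of 0.21, 0.04, 0.13 and 0.19 in malignant cells, none called, and the groups of each overlapped. Nfkb2 was 46.7, 71.1 and 51.0 after vehicle and 69.8 and 64.4 after Xevinapant, and Relb was 53.7, 80.0 and 51.1 against 70.5 and 60.2. For both genes of the noncanonical dimer the highest value was that of vehicle 2, so the groups overlapped. Nfkb1 was 56.8, 56.5 and 64.7 against 61.1 and 72.6, and Rela was 75.1, 68.0 and 62.9 against 89.4 and 72.2, also with overlap.

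Among the inhibitors in malignant cells, Tnfaip3 was 18.1, 18.2 and 18.2 after vehicle, 41.2 in Xevinapant 1+2 and 21.1 in Xevinapant 3+4. Nfkbie was 23.5, 24.1 and 20.5 after vehicle, 44.1 in Xevinapant 1+2 and 25.5 in Xevinapant 3+4. Both genes were thus set apart mainly by Xevinapant 1+2, and in its 2 matrices Tnfaip3 was 40.7 and 41.6 against 20.5 and 21.8 in Xevinapant 3 and 4. The log2 fold changes were 0.74 (SE 0.27, unadjusted p = 0.0311, adjusted p = 0.409) for Tnfaip3 and 0.58 (SE 0.24, unadjusted p = 0.0494, adjusted p = 0.435) for Nfkbie. Without Xevinapant 1+2 they were 0.15 and 0.09, and without Xevinapant 3+4 they were 1.15 and 0.93. Nfkbia was 205, 252 and 219 against 257 and 240, with overlap.

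In malignant cells, edgeR called 0 of the 10 genes and 0% of 14516 genes in either direction, and DESeq2 also called none of the 10, while it called 1.04% of 14172 genes higher and 1.07% lower. With the stricter limit for joining matrices, edgeR called 0.166% of genes higher and 0.111% lower and none of the 10. The unadjusted p was under 0.05 for 2 of the 10 genes and for 1667 of all genes (11.5%). Of the 10 genes, 9 had a log2 fold change above 0, with a median of 0.16 against 0.01 over all genes tested. Map3k14, Traf2, Nfkbie and Tnfaip3 had groups that did not overlap, all higher after Xevinapant, 4 of 10, where 19.1% of all genes did so. By single matrix, Traf2 overlapped, with 106 in Xevinapant 3 against 108 in vehicle 4. Nfkbie overlapped too, with 23.6 in Xevinapant 3 against 24.1 in vehicle 2. The separation of these genes thus depended on joining matrices. In malignant cells the targets of the compound stood at 33.4, 33.0 and 37.3 after vehicle and 37.3 and 39.4 after Xevinapant for Birc2, which encodes cIAP1, with a log2 fold change of 0.10. Birc3, which encodes cIAP2, changed by 0.18 on the log2 scale, and Xiap by -0.64 (adjusted p = 0.413).

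**Figure D3:**
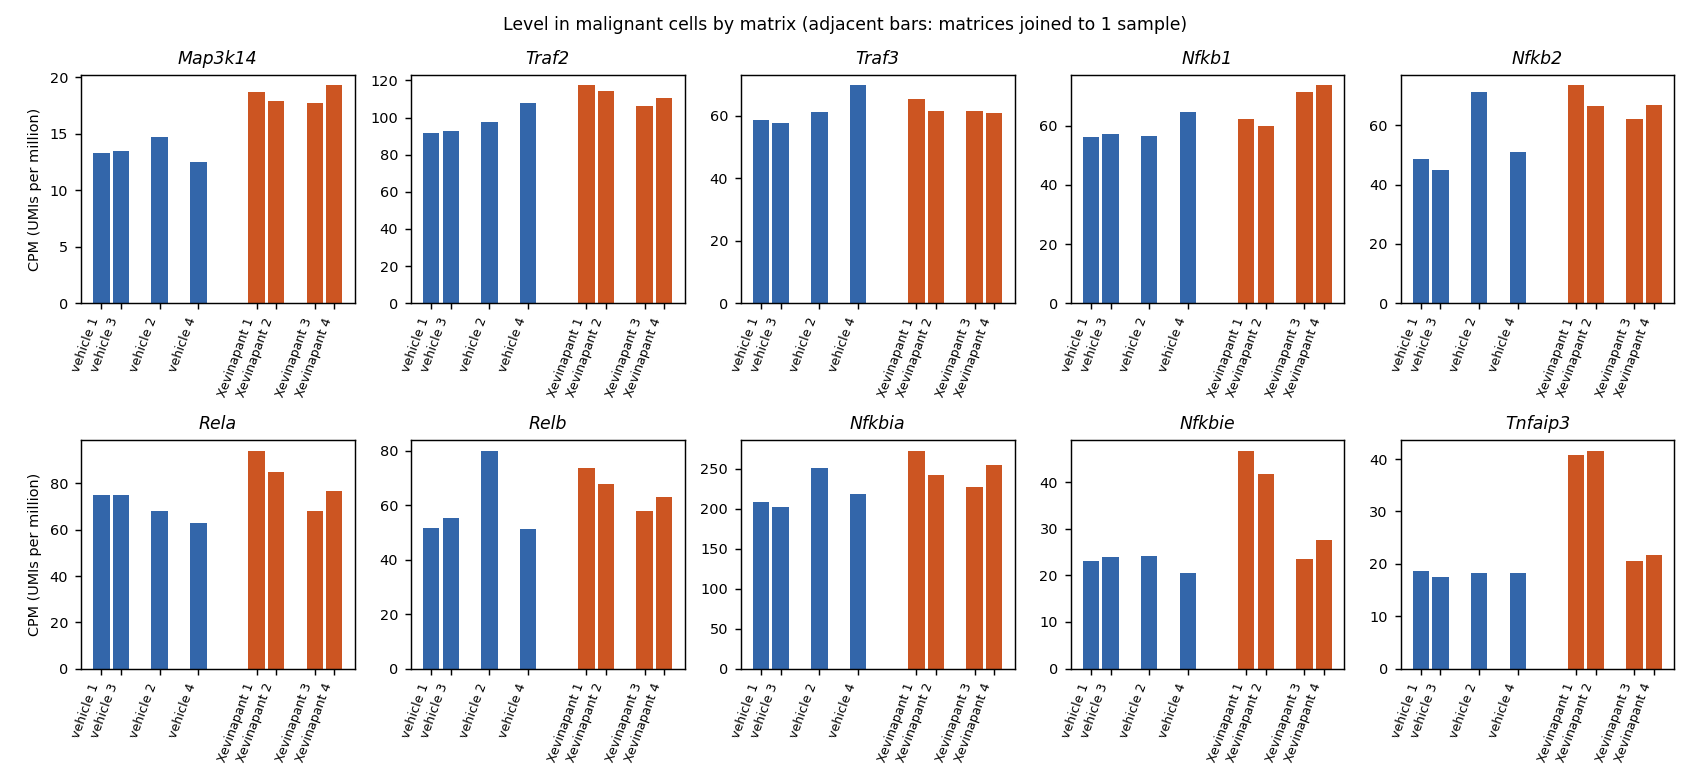
Bars give the level of each gene in malignant cells in CPM on the y axis from 0 for each of the 8 matrices, blue for vehicle and orange for Xevinapant, with matrices joined to 1 sample drawn next to each other. Map3k14 lies at 12.5 to 14.7 in the vehicle matrices and at 17.7 to 19.3 in the Xevinapant matrices, while Tnfaip3 lies at 40.7 and 41.6 in Xevinapant 1 and 2 and at 20.5 and 21.8 in Xevinapant 3 and 4.

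In microglia, Map3k14 was 35.3, 24.7 and 38.8 after vehicle and 44.3 and 54.2 after Xevinapant, and Tnfaip3 was 34.4, 40.5 and 21.9 against 51.0 and 49.1. Nfkbia was 86.4, 107 and 114 against 115 and 143. The groups of these 3 genes did not overlap, where 10.7% of all genes were higher without overlap. Rela was the reverse, with 96.2, 106 and 99.4 against 95.2 and 90.4, and 13% of all genes were lower without overlap. In edgeR, 0 of the 10 genes and 0% of 10126 genes were called in either direction, 2 of the 10 genes and 807 of all genes had an unadjusted p under 0.05, and DESeq2 called none of the 10. The log2 fold changes were 0.53 (SE 0.21) for Map3k14 and 0.76 (SE 0.24) for Tnfaip3, with adjusted p of 0.589 and 0.551. The groups of the other 6 genes overlapped, with log2 fold changes from -0.11 for Nfkb1 to 0.37 for Relb.

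In macrophages or monocytes, Map3k14 was 40.4, 14.4 and 24.5 after vehicle and 44.6 and 61.6 after Xevinapant, and Traf3 was 32.7, 14.4 and 32.7 against 36.5 and 52.5. These 2 genes did not overlap (12% of all genes), and the vehicle 2 values, the lowest, rest on 30 cells. The log2 fold change of Map3k14 was 0.80 (SE 0.35, unadjusted p = 0.0419, adjusted p = 0.627), and in the cells of lower tumor gene share, where vehicle 4 also fell out, it was 0.22, against 0.71 without vehicle 4 alone. Tnfaip3 ran the other way, 104, 52.8 and 53.1 against 47.3 and 64.6, with overlap. The other 7 genes also overlapped, with log2 fold changes from -0.39 for Nfkbie to 0.40 for Rela. None of the 10 genes and 0% of 8112 genes were called in edgeR in either direction, with 1 of the 10 and 624 of all genes at an unadjusted p under 0.05. DESeq2 gave an adjusted p for 1 of the 10 and did not call it.

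In endothelial cells, 6 of the 10 genes passed the filter on low counts, and Map3k14, Traf3, Tnfaip3 and Nfkbie did not. Nfkbia was 255, 418 and 272 after vehicle and 477 and 616 after Xevinapant, Rela was 119, 122 and 123 against 134 and 190, and Relb was 17.0, 52.2 and 26.3 against 59.2 and 55.8. Together with Nfkb2 (79.3, 69.6 and 65.7 against 103 and 84.6), 4 of the 6 did not overlap and were higher after Xevinapant, where 13.2% of all genes were. Relb, 1 of these 4, had 3, 9 and 6 UMIs after vehicle against 19 and 29 after Xevinapant. It thus passed the filter mainly through the group where it was higher, and its separation is no support for a change. The 17.0 of vehicle 1+3 has an exact 95% Poisson interval of 3.5 to 49.7. The lowest p was that of Nfkbia, with a log2 fold change of 0.79 (SE 0.26), an unadjusted p of 0.00727 and an adjusted p of 0.303, and Relb had a log2 fold change of 0.86 (SE 0.47, adjusted p = 0.584). In edgeR 0 of the 6 genes were called, against 0.228% of 6130 genes higher and 0.0326% lower. Of the 6 genes, 1 had an unadjusted p under 0.05, as did 609 of all genes. DESeq2 gave an adjusted p for 1 of the 10 genes and did not call it.

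In fibroblasts, 9 of the 10 genes passed the filter and all 9 had a log2 fold change above 0, with a median of 0.30 against -0.01 over all genes. This did not hold under every alternative, where Nfkb1 fell to as low as -0.51, Relb to -0.19, Traf3 to -0.09 and Rela to -0.05. Nfkb2, at 50.7, 54.4 and 74.3 after vehicle and 76.4 and 74.4 after Xevinapant, and Traf2, at 35.5, 44.5 and 46.5 against 50.3 and 51.1, did not overlap, 2 of 9 (10.5% of all genes were higher in this way), and 0 of 9 were lower without overlap (9.96% of all genes). edgeR called 0 of the 9 and 0% of 8456 genes in either direction, with 0 of the 9 and 575 of all genes at an unadjusted p under 0.05, and DESeq2 gave an adjusted p for 1 of the 10 and did not call it. Neutrophils (5 genes tested), dendritic cells (8) and T or NK cells (6) were compared with 2 samples per group, since vehicle 2 had fewer than 10 such cells. edgeR called none of these genes and 0% of all genes, none of them had an unadjusted p under 0.05 (115, 402 and 100 of all genes did), and DESeq2 called none. In neutrophils, Nfkbia was 1086 and 1550 after vehicle and 891 and 927 after Xevinapant, without overlap (18.5% of all genes were lower in this way), and its interval of -1.24 to 0.53 on the log2 scale includes a change in either direction. In dendritic cells, Nfkb2 was 291 and 244 after vehicle and 295 and 302 after Xevinapant, and Nfkb1 was 327 and 338 against 295 and 323. These were the genes without overlap among the 8 tested, 1 higher and 1 lower (18.6% and 22.1% of all genes), and the 8 log2 fold changes ran from -0.63 for Relb to 0.56 for Map3k14. Under the alternatives that of Relb ran from -1.33 to 0.78 and that of Map3k14 from 0.02 to 1.48. The vehicle values of Relb were 236 in vehicle 1+3 and 56.3 in vehicle 4. In T or NK cells, Rela was 158 and 159 against 205 and 225, Nfkb1 was 343 and 432 against 270 and 264 and Traf2 was 185 and 182 against 173 and 165, all without overlap (16.5% of all genes were higher and 18% lower in this way). The vehicle samples held only 17 and 24 such cells. Their Traf2 values rest on 7 and 8 UMIs, so the Traf2 separation is not secured by these counts.

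**Figure D4:**
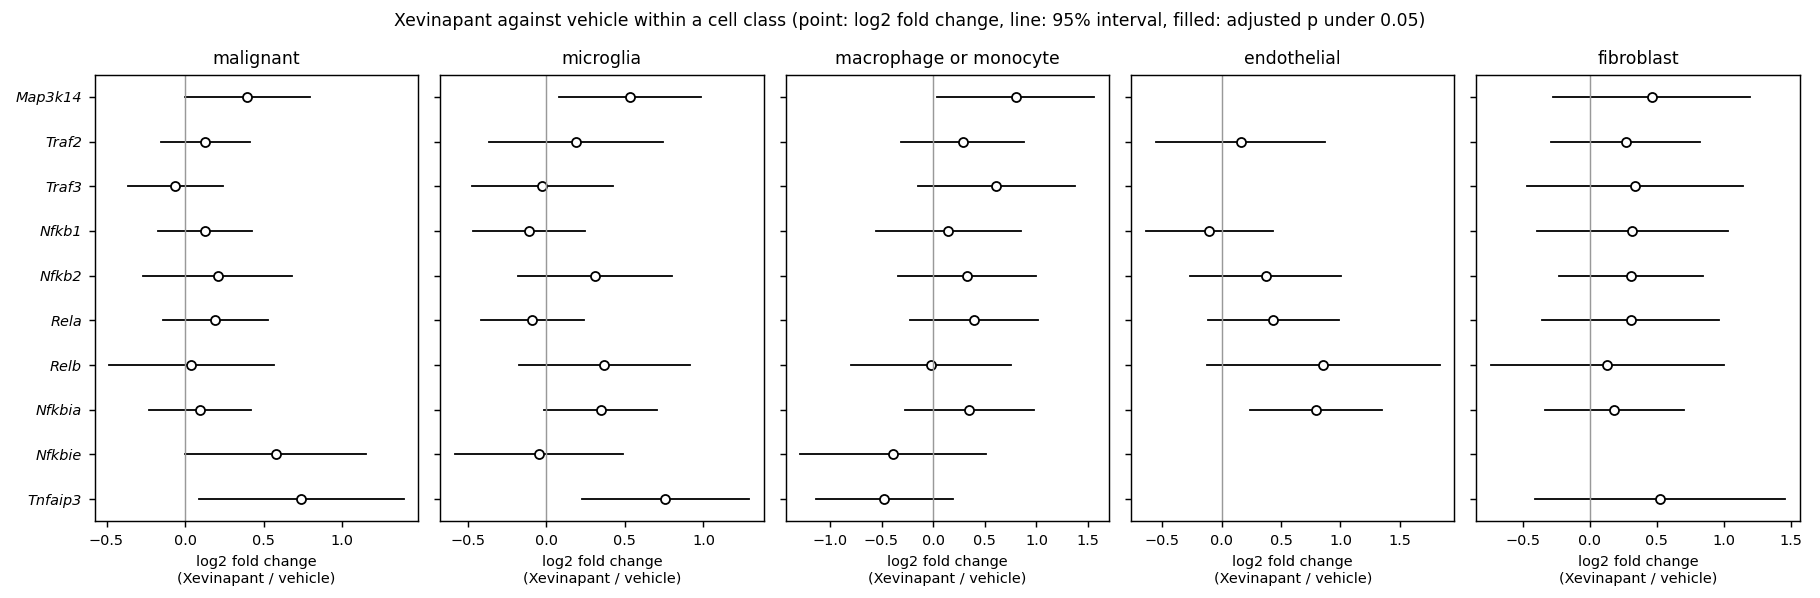
Each panel plots, for 1 cell class, the log2 fold change of Xevinapant over vehicle for the genes tested in that class on the x axis (point) with its 95% interval (line), filled where the adjusted p was under 0.05. No point is filled, and 6 intervals lie above 0 before adjustment for the number of genes: Tnfaip3 (0.09 to 1.39) and Nfkbie (0.0019 to 1.15) in malignant cells, Tnfaip3 (0.23 to 1.29) and Map3k14 (0.08 to 0.99) in microglia, Map3k14 in macrophages or monocytes (0.04 to 1.56) and Nfkbia in endothelial cells (0.24 to 1.35).

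Malignant cells were divided by marker UMIs into 28585 oligodendrocyte progenitor-like (OPC-like), 2606 astrocyte-like (AC-like), 880 mesenchymal-like (MES-like) and 437 neural progenitor-like (NPC-like) cells, and each state was set against the OPC-like cells of the same sample, without a test. Another 6143 malignant cells had no state and 61 a mixed one. No malignant cell of any state was checked for copy number. A cell that passed the NPC-like gate alone counted as malignant without tumor glial markers. Whether NPC-like cells include neuronal cells of the host, or the other malignant cells include glial cells of the host, was not tested. Tnfaip3 had the highest ratio in MES-like cells, with levels of 60.9, 77.4 and 75.4 in the vehicle samples and 94.9 and 72.0 in the Xevinapant samples, against 17.1, 17.4, 17.3, 38.7 and 20.9 in OPC-like cells. The ratio was 3.65 ± 0.81 (SD, 5 samples), from 2.45 to 4.45. Map3k14 (ratio 1.79 ± 0.39), Nfkbia (1.47 ± 0.22) and Rela (1.25 ± 0.14) were also higher in MES-like cells in all 5 samples, 4 of 10 genes where 19.5% of all genes were. Nfkb2 (0.78 ± 0.17), Relb (0.73 ± 0.11), Traf3 and Nfkb1 were lower in all 5 samples, where 37.8% of all genes were. The share of the 10 genes that was lower was thus close to that of all genes. The Nfkb2 ratio is a mean over both groups. Its level in MES-like cells was 37.4, 39.4 and 34.8 after vehicle and 61.3 and 62.7 after Xevinapant, without overlap. Treatment was not tested within a state, and the share of all genes without overlap was not determined there.

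In AC-like cells, Map3k14 (1.51 ± 0.21), Nfkbia (1.53 ± 0.15), Traf3 (1.27 ± 0.15) and Rela (1.07 ± 0.05) were higher in all 5 samples (25.8% of all genes), and Relb, Nfkb1 and Tnfaip3 were lower in all 5 (40.9%). NPC-like cells had the lowest values of the pathway, with 8 of the 10 genes lower in all 5 samples, where 30.7% of all genes were. Nfkb2 in NPC-like cells was 7.48, 1.11 and 13.1 after vehicle and 16.3 and 16.8 after Xevinapant, without overlap. In OPC-like cells of the same samples it was 46.8, 72.7, 50.4, 67.8 and 65.8. The vehicle 2 value is 1 UMI from 56 cells, which gives a ratio of 0.0152 with an exact 95% Poisson interval from 0.000386 to 0.0849. The ratio was 0.19 ± 0.10 over the 5 samples and 0.23 ± 0.05 over the 4 others, from 0.16 to 0.26. Relb (0.36 ± 0.19) and Nfkb1 (0.50 ± 0.14) were also low, and Map3k14 was higher in all 5 samples (1.34 ± 0.49, where 23.3% of all genes were higher). The vehicle 4 and Xevinapant 1+2 NPC-like values rest on 35 and 28 cells. Median UMIs per cell were between 12936 and 21703 in the 4 states.

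**Figure D5:**
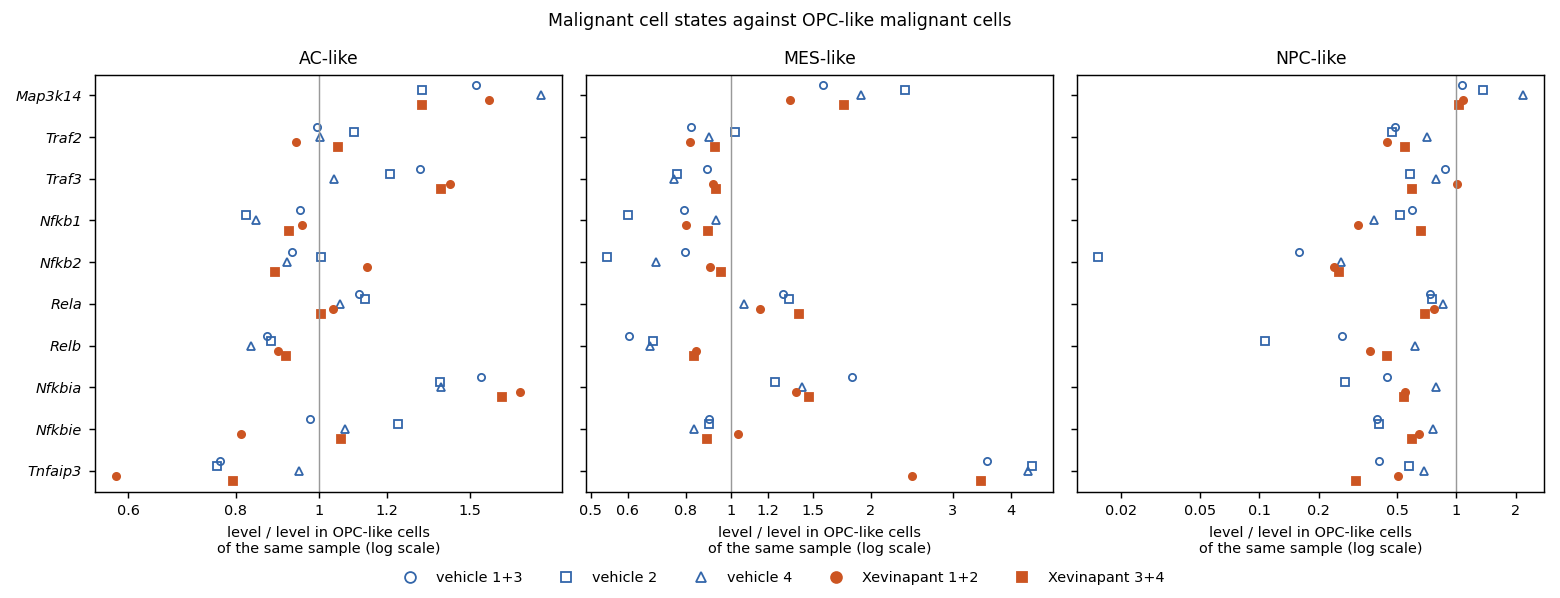
Each panel plots 1 malignant cell state, with the level of each gene divided by its level in OPC-like cells of the same sample on a log x axis and 1 symbol per sample, open blue for vehicle and filled orange for Xevinapant. Tnfaip3 lies at 2.45 to 4.45 in MES-like cells, and Nfkb2 in NPC-like cells lies at 0.16 to 0.26 in 4 samples and at 0.0152, a value of 1 UMI, in vehicle 2.

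The other genes of the pathway were counted in lists. After Xevinapant, edgeR called 1 of them in any class: Ier3, an early response gene induced by NF-kB, was higher in endothelial cells by 1.57 (SE 0.30) on the log2 scale, with an adjusted p of 0.0277, where 0.228% of 6130 genes were called higher. This call was lost in 6 of 16 alternatives: with doublets kept (adjusted p = 0.087), in cells of at least 3000 UMIs (0.0971), in cells of lower tumor gene share and without vehicle 4 (0.296), without vehicle 1+3 (0.272), without vehicle 4 (0.329) and with same-numbered matrices of the groups as pairs (0.056). Its log2 fold change was 1.35 to 1.62 in these 6. In malignant cells, 5 of 14 canonical targets had an unadjusted p under 0.05, as did 11.5% of all genes, and their median log2 fold change was 0.46 against 0.01 over all genes, with 0 called. The 6 noncanonical targets tested had a median of 0.52 and the 9 other noncanonical kinases and adaptors a median of 0.10, with 0 called in either list. In the other classes the median of the canonical targets ran from -0.17 in T or NK cells to 0.49 in endothelial cells. It was -0.005 in microglia and -0.15 in macrophages or monocytes. That of the noncanonical targets ran from -0.80 in macrophages or monocytes (2 tested) to 0.75 in endothelial cells (1 tested). The lists were chosen with earlier results of these data known, so these medians are no support for a change.

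Against malignant cells, list counts are to be read beside the shares of all genes called higher, 31.4% in microglia, 28.7% in macrophages or monocytes, 15.1% in neutrophils, 22.1% in endothelial cells and 27.3% in fibroblasts, and called lower, 39.7%, 36.2%, 30.1%, 26.1% and 29.2%. The list of other noncanonical kinases and adaptors was higher for 8 of 9 genes in microglia and in macrophages or monocytes, 5 of 9 in neutrophils, 3 of 9 in endothelial cells and 3 of 9 in fibroblasts, and lower for 1, 1, 0, 2 and 0. Birc3 was higher in all 5 classes, by 2.44 (SE 0.19) in microglia, 2.89 (SE 0.19) in macrophages or monocytes, 3.80 (SE 0.46) in neutrophils, 1.30 (SE 0.42) in endothelial cells and 2.21 (SE 0.25) in fibroblasts on the log2 scale. Birc2, the gene for cIAP1, was lower in microglia (-0.40), macrophages or monocytes (-0.83) and endothelial cells (-1.07). Each of these Birc2 calls, and that of Birc3 in endothelial cells, was lost under at least 1 alternative, with adjusted p of up to 0.104, 0.0862, 0.185 and 0.129 in turn. Ripk1, the adaptor kinase of the TNF receptor complex, was higher in all 5 classes, between 1.21 in fibroblasts and 1.97 in macrophages or monocytes. Of the 5 other subunits and inhibitors, 4 were higher in microglia, macrophages or monocytes and neutrophils, among them Rel (2.18, 1.79 and 2.54) and Nfkbiz (2.89, 2.72 and 3.91). In endothelial cells and in fibroblasts, 2 of the 5 were higher and 1 was lower, which was Nfkbib (-0.66 and -1.42), the gene for IkB beta. All 8 other feedback genes were higher in microglia (31.4% of all genes) and 7 of 8 in macrophages or monocytes (28.7%), and Zc3h12a, an RNase that degrades inflammatory transcripts, was higher by 5.11 and 5.10. Of this list, 5 of 7 tested genes were higher in neutrophils, 4 of 7 in endothelial cells and 3 of 7 in fibroblasts, with 0 lower. Of the receptors of the noncanonical arm, 5 of 7 tested were higher and 2 lower in microglia, 6 and 1 of 8 in macrophages or monocytes, 4 and 1 of 8 in neutrophils, 6 and 0 of 8 in endothelial cells and 5 and 1 of 7 in fibroblasts. Cd40 was among those higher in endothelial cells, by 9.69 (SE 0.37). The noncanonical targets were mixed, with 3 of 7 higher and 3 lower in microglia, 2 and 1 of 6 in macrophages or monocytes and in neutrophils, 1 and 1 of 6 in endothelial cells and 4 and 1 of 6 in fibroblasts. Cxcl12 was higher by 6.48 in endothelial cells and 7.70 in fibroblasts.

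The genes whose pattern over the 10 classes was most like that of 9 of the 10 genes, by Pearson correlation of mean log2 levels among 12794 genes, were Arhgap45 for Map3k14 (r = 0.936), Ccr6 for Nfkb2 (0.952), Sub1 for Relb (0.891), Zfp207 for Traf2 (0.919), Gtf2ird2 for Traf3 (0.98), Baz2a for Nfkb1 (0.952), Cysltr2 for Rela (0.947), Eapp for Nfkbia (0.864) and Fcf1 for Nfkbie (0.949). None of the 10 genes was among the 3 nearest of another. No minimum of cells was set here, so that dendritic cells of vehicle 2, for example, entered with 3 cells. The points share their cells and sample totals, and B and mural cells rest on few cells, so these values are a description only.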

How the data were processed

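Tumors from vehicle and Xevinapant mice were profiled with a probe-based single-cell assay on fixed cells. The authors deposited unnormalized UMI counts, 4 matrices per group, mapped to mm10. The matrix headers name Cell Ranger 7.1.0, whereas the methods name another version, and files of the treated group are also named Vehicle, so groups were taken from the sample labels. Cells with fewer than 200 genes, over 10% mitochondrial UMIs or a complexity under 0.8 were left out here, and the cells with the highest Scrublet scores (scanpy 1.11.5) were removed as doublets at a rate of 0.8% for every 1000 cells, higher than the rate in the protocol, 3612 of 54574. Depth per matrix was 71835789 to 300206053 UMIs, with medians of 7452 to 14027 per barcode.

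Classes came from gates on marker UMIs, with a minimum of 10 cells per sample and class for levels by sample and for fits. Pooled values and the likeness of patterns used every sample. Cells within 1.5-fold of the level of a gate, on either side and in any class, numbered 4075 for malignant cells, 283 for microglia, 268 for macrophages or monocytes, 16 for neutrophils, 67 for dendritic cells, 5 for T or NK cells, 32 for endothelial cells and 58 for fibroblasts. Of these, 2640, 99, 0, 9, 9, 0, 1 and 18 in turn were in the class. Among the malignant states, 426 of 880 MES-like, 686 of 2606 AC-like, 87 of 437 NPC-like and 3679 of 28585 OPC-like cells lay this near their gate. Matrices of a group were joined where their variance in malignant cells was under 10 times the cell sampling noise. The ratio was 1.31 to 4.37 in joined pairs and 19.3 to 53.4 in the others. This limit was set after these ratios were seen. A stricter limit of 1.5, written earlier, would have joined vehicle 1 and 3 only and was kept as an alternative.

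Counts were summed per sample and class and tested with edgeR 4.0.16 in R 4.3.3 (quasi-likelihood test, TMM, filterByExpr, Benjamini-Hochberg over all genes of a class, threshold 0.05, two-sided). The alternatives were DESeq2 1.42.0, doublets kept, plain library sizes, all genes kept, 1 more marker per gate, cells of at least 3000 UMIs, cells of lower tumor gene share, each matrix as 1 mouse, with and without the matrix number as a block, and leaving out each sample in turn. The scripts were tested on simulated data. The limit given for a count of 0 is that of 3 UMIs and covers counting error only.

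The 10 genes could be named in every class, and where a class is given by counts and ranges the genes printed are mainly those whose groups did not overlap. Genes of the pathway lists are named where they passed the threshold in a class, at most 4 per list and class by size of change, plus Birc2, Birc3 and Xiap, and the single gene most like a member is given for 9 members; that for Tnfaip3 is not reported here. The members and lists were chosen with earlier results of these data known.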

Additional observations from a re-analysis of the deposited data

Results flagged for a closer look

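The groups of Rela lay apart in opposite directions in endothelial cells and microglia. After Xevinapant its mean was 162 CPM in endothelial cells, with both samples above all 3 vehicle samples, and 92.8 in microglia, with both samples below all 3 vehicle samples. Neither change passed the threshold in edgeR (adjusted p = 0.619 in endothelial cells and 0.922 in microglia), and the difference between the classes was not tested. The log2 fold change in endothelial cells was 0.44 and ran from -0.10 to 0.67 under the alternatives, so its direction was not kept under all of them. In microglia it was -0.09 and ran from -0.22 to -0.01.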

How the results depend on the processing

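The labels tie no number of a matrix to an animal or day, but vehicle and Xevinapant matrices share full barcodes only where their numbers match. Same-numbered matrices did not all deviate together in malignant cells (correlation over 14029 genes of 0.21, -0.05, -0.20 and 0.16), and not every matrix correlated best with its own number, so they were taken to share only a number. Chosen after seeing the data, a fit of single matrices with the number as a replicate block called 0 of the 10 genes in each of the 6 classes with at least 3 such pairs. In malignant cells Map3k14 was then 0.41 (adjusted p = 0.109), with 0.146% of 14411 genes higher and 0.0347% lower, against 2.05% and 3.14% without the block. After Xevinapant, 64 pairs of gene and class were tested, and 884 of 885 values under the alternatives stayed on the same side of the threshold, with 53 changes of sign among values that were not called. The exception was Map3k14 in malignant cells with each matrix as 1 mouse, which made the malignant count 1 instead of 0. Against malignant cells, 33 of 50 pairs were called, 21 were called under every alternative run and 12 were lost under at least 1. Of 690 such values, 641 stayed on the same side of the threshold, called or not, 26 lost a call, 20 gained one and 3 changed direction: Nfkb2 in microglia (-0.023) and Nfkb1 in fibroblasts (-0.13) without TMM, and Traf2 in neutrophils (-0.67) with each matrix as 1 mouse. Another 29 values that were not called changed sign. The count of members higher in fibroblasts went from 4 to 1 without TMM, and that in neutrophils ranged from 3 to 5 when a sample was left out, with 3 without Xevinapant 1+2 and 3 without Xevinapant 3+4. In cells of lower tumor gene share the calls of Nfkb2 in macrophages or monocytes (0.33) and endothelial cells (0.32), Traf3 in endothelial cells (-0.64) and Nfkbia in fibroblasts (-0.40) were lost. This choice also left out vehicle 4, or vehicle 2 in fibroblasts, for too few cells. The cause was not tested. Thinned to 5000 UMIs, the count of members detected in a larger share than in malignant cells was 5 in microglia, 6 in macrophages or monocytes, 4 in endothelial cells and 5 in fibroblasts, and too few neutrophils were left. The joining to 5 samples replaced the stricter limit once the ratios between matrices had been seen, and leaving out shared barcodes was also chosen after seeing the data. Malignant cells have no value for lower tumor gene share, and the class contrast was not run without a low-count filter.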
